A study of Arabidopsis thaliana with 9 samples.

Results

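Class III peroxidases of root hairs and of the differentiating root epidermis were followed in root tips of Arabidopsis thaliana in which ERF115 was disrupted or overexpressed. The set was given as 8 loci, and its members are those to which the annotation of the array maps a probe set, the group of short probes that reports 1 transcript. That left 5 of the 8 genes, AT1G30870, AT1G34510, AT3G01190, AT3G49960 and AT4G26010, each read by 1 probe set of 1 gene, among the 13286 loci that could be named on the array. AT1G05240, AT5G22410 (RHS18, root hair specific 18) and AT5G67400 (RHS19, root hair specific 19) had no mapped probe set and were not analysed here. The members go by locus, because the gene table used for names gives these 5 no other symbol.

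Class III peroxidases are secreted haem enzymes of plants, encoded by a large gene family. In the cell wall they use hydrogen peroxide to oxidise phenolic compounds and tyrosine residues of structural proteins such as extensins, which cross-links and stiffens the wall. They can also produce hydroxyl radicals, which loosen it. A root hair is a tubular outgrowth of an epidermal cell that elongates at its tip, where NADPH oxidases supply reactive oxygen species and where expansins, wall-modifying enzymes and extensins shape the wall. Hairs arise as epidermal cells leave the elongation zone and differentiate, so in a root tip they mark its older end.

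The study compared 3 genotypes with 3 arrays each, all from untreated seedlings 5 days old whose root tips of 3 mm were cut off with a scalpel. Col-0 is the wild type and the background of both other lines. The erf115 mutant, erf115ko, carries the T-DNA insertion SALK_021981. The overexpressor, ERF115OE, carries the ERF115 open reading frame behind p35S, a constitutive promoter, so the transgene is not limited to the cells that normally express the gene. ERF115 is an ethylene response factor, a plant transcription factor. Seedlings of every group grew on nylon mesh over MS medium at 21 degrees with 16 h of light and 8 h of dark, and the labels give no number of seedlings or of independent transgenic lines. The labels do not say whether the replicates are separate cultures, and p-values therefore cover only the spread of these samples, which can be technical. No probe set was named as ERF115, so the genotype labels were not checked against that transcript.

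Levels are log2 values from RMA, and a difference of 1 is a doubling. Each comparison was fitted over 22746 probe sets with limma, and a gene was called where the Benjamini-Hochberg adjusted p was under 0.05. Medians of the arrays lay between 5.04 and 5.13. The difference between 3′ and 5′ probe sets of an actin transcript, a measure of RNA integrity, was 2.08 to 2.31 in Col-0, 2.19 to 2.24 in erf115ko and 1.96 to 2.14 in ERF115OE. An older pair of actin probe sets overlapped in all 3 genotypes, and the part of RNA integrity in the results was not tested. Col-0 replicate 3 stood apart from the other Col-0 arrays in 4 of the 5 members and in some of the other genes described here, as shown next. The calls of the members are given with and without it.

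In ERF115OE, 3 of the 5 peroxidases were higher than in Col-0 by limma: AT1G34510 by 4.78-fold, AT3G49960 by 2.05-fold and AT4G26010 by 1.86-fold. AT1G30870 had a fold of 1.41 that missed the threshold, and AT3G01190 differed by -0.08 on the log2 scale. The median log2 fold change of the 5 was 0.90. The set was chosen with earlier results of these data known. Over all probe sets tested, the median was -0.025, and 854 of 22746 were called higher (3.75%) and 387 lower (1.7%). Centring each array on its median turned that split into 753 higher and 576 lower, and still called 3 members. In these bulk samples, more cells of a type and more RNA per cell cannot be told apart.

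AT1G34510 had log2 levels of 5.19, 4.82 and 6.62 in Col-0 replicates 1 to 3, of 5.34, 5.60 and 6.02 in erf115ko, and of 7.45, 8.41 and 7.55 in ERF115OE. All ERF115OE arrays lay above all others, and Col-0 replicate 3 was the highest of the remaining 6. ERF115OE exceeded Col-0 by a log2 fold change of 2.26 (SE 0.41, 95% interval 1.35 to 3.17, limma adjusted p = 0.00932, n = 3 per genotype). Only 0.044% of all probe sets had a larger one. Replicates 1 and 2 of Col-0 lay near the array medians, and Col-0 replicate 3 and all 3 erf115ko arrays lay above them.

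AT3G49960 had log2 levels of 6.65, 6.67 and 7.68 in Col-0, of 7.01, 6.95 and 7.13 in erf115ko, and of 7.91, 8.42 and 7.78 in ERF115OE. The ERF115OE arrays were again above all others, but the lowest of them exceeded Col-0 replicate 3 by little. Over Col-0 the log2 fold change was 1.04 (SE 0.25, 95% interval 0.48 to 1.59, limma adjusted p = 0.0374). The SD over the 3 Col-0 arrays was 0.59, against 0.09 over erf115ko.

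AT4G26010 had log2 levels of 8.39, 8.78 and 9.16 in Col-0, of 8.64, 9.12 and 9.05 in erf115ko, and of 9.53, 9.91 and 9.58 in ERF115OE. The 3 overexpressor arrays did not overlap with the other 6. Against Col-0 the log2 fold change was 0.90 (SE 0.19, 95% interval 0.47 to 1.32, limma adjusted p = 0.0209). The 3 called members were also those whose ERF115OE and Col-0 arrays did not overlap, a pattern that 9.26% of all probe sets showed in the direction of higher levels.

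AT1G30870 had log2 levels of 8.90, 9.09 and 9.73 in Col-0, of 9.21, 9.29 and 9.31 in erf115ko, and of 9.58, 9.92 and 9.71 in ERF115OE. Col-0 replicate 3 lay inside the range of ERF115OE, whereas the other Col-0 arrays and all erf115ko arrays lay below it. The log2 fold change over Col-0 was 0.50 (SE 0.18, 95% interval 0.11 to 0.88) and did not pass (limma adjusted p = 0.154).

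AT3G01190 had log2 levels of 11.91, 11.86 and 11.88 in Col-0, of 11.73, 12.01 and 11.86 in erf115ko, and of 11.77, 11.74 and 11.89 in ERF115OE. The genotypes overlapped throughout. The log2 fold change of ERF115OE over Col-0 was -0.08 (SE 0.08, 95% interval -0.26 to 0.10, limma adjusted p = 0.643). The signal was at the top of the array's range, above 99.4% of probe sets or more on every array, and whether saturation hid a difference was not tested.

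**Figure D1:**
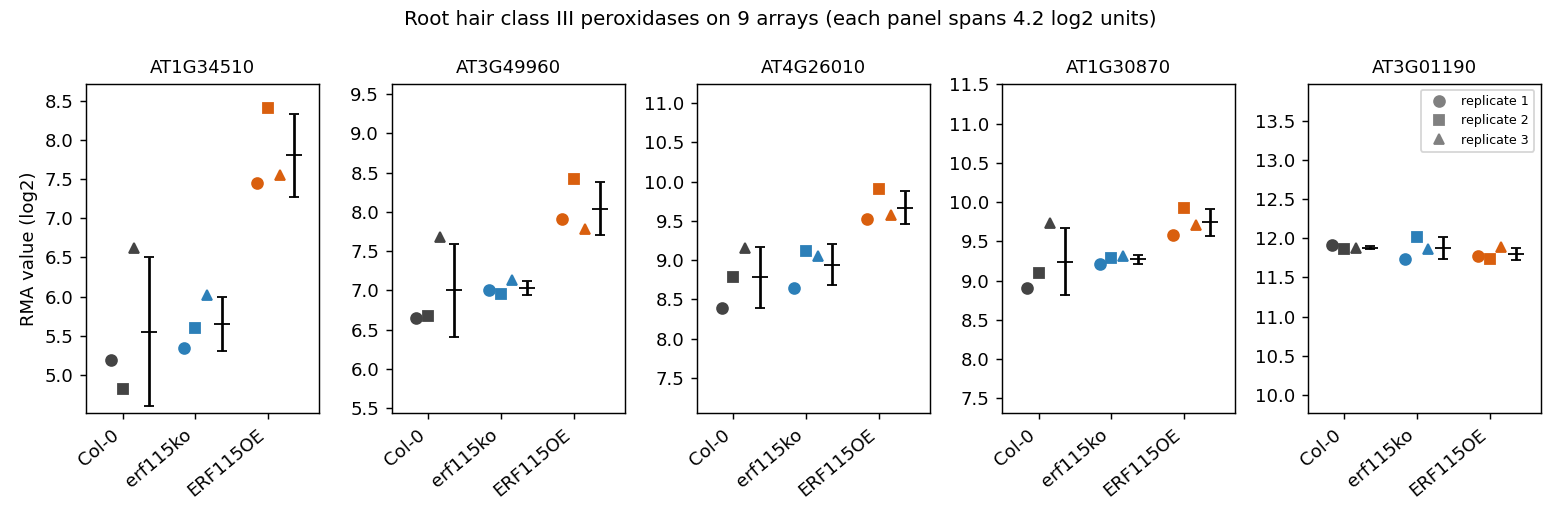
Log2 level (RMA) of the 5 peroxidases on each of the 9 arrays, 1 panel per gene, with points for arrays and bars for the mean ± SD of the 3 arrays of a genotype. Each panel spans the same number of log2 units from its own start. ERF115OE arrays lie above all others for AT1G34510, AT3G49960 and AT4G26010, Col-0 replicate 3 reaches 9.73 for AT1G30870, and AT3G01190 stays between 11.73 and 12.01.

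The calls depended on single arrays. Col-0 replicate 3 exceeded the mean of the other 2 Col-0 arrays by 1.61 in AT1G34510, and no other of the 22746 probe sets showed a larger excess on that array. The excess was 1.02 in AT3G49960 (0.0615% of probe sets were larger), 0.73 in AT1G30870 (0.33%), 0.58 in AT4G26010 (0.958%) and 0.00 in AT3G01190. This array was looked at after the values had been seen. Without it, 4 of the 5 members were called higher in ERF115OE than in Col-0, when 4.29% of all probe sets were. The log2 fold changes were then 2.80 for AT1G34510 (limma adjusted p = 0.000901), 1.37 for AT3G49960 (limma adjusted p = 0.00164), 1.09 for AT4G26010 (limma adjusted p = 0.00758) and 0.74 for AT1G30870 (limma adjusted p = 0.00461).

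Leaving out other arrays weakened the calls. AT1G34510 passed whichever of the 9 arrays was left out, with log2 fold changes of 1.90 to 2.80 and limma adjusted p between 0.000901 and 0.0448. AT3G49960 passed only without Col-0 replicate 3 and missed the threshold without any of the other 8 arrays, with a limma adjusted p of up to 0.136 and a log2 fold change of at least 0.85. AT4G26010 missed it without Col-0 replicate 1 (limma adjusted p = 0.0643), Col-0 replicate 2 (limma adjusted p = 0.0674), ERF115OE replicate 2 (limma adjusted p = 0.0827) or ERF115OE replicate 3 (limma adjusted p = 0.0528). Its log2 fold change was then at least 0.70. So between 1 and 4 members were called, when 2.29 to 4.29% of all probe sets were called higher. The direction of these 3 did not change in any of the 9 refits.

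In the mutant no member was called by limma against Col-0, in a comparison in which 3 of 22746 probe sets (0.0132%) passed at all. The log2 fold change of erf115ko over Col-0 was 0.11 for AT1G34510 (95% interval -0.80 to 1.02), 0.03 for AT3G49960 (-0.52 to 0.58) and 0.16 for AT4G26010 (-0.26 to 0.58). For AT1G30870 it was 0.03 (-0.36 to 0.42) and for AT3G01190 -0.01 (-0.19 to 0.17). Arrays of the genotypes overlapped for all 5, each limma adjusted p was 1, and none of the 5 had an unadjusted p under 0.05. The median of the 5 log2 fold changes was 0.03. Over all probe sets 1033 had an unadjusted p under 0.05 in this comparison.

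The width of these intervals differs by gene. A decrease by 1 on the log2 scale lies outside the interval of all 5 genes. An increase by 1 lies outside it for AT3G49960, AT4G26010, AT1G30870 and AT3G01190, and inside it for AT1G34510. Without Col-0 replicate 3 the log2 fold changes of erf115ko over Col-0 were 0.65 for AT1G34510, 0.37 for AT3G49960, 0.35 for AT4G26010 and 0.27 for AT1G30870, and none passed by limma (the lowest adjusted p was 0.907). Within erf115ko the arrays were close together for AT3G49960 (SD 0.09) and AT1G30870 (SD 0.06), and further apart for AT1G34510 (SD 0.34).

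Set against the mutant, the overexpressor had 1 member called higher, AT1G34510, with a log2 fold change of 2.15 (SE 0.41, 95% interval 1.24 to 3.06, 4.44-fold, limma adjusted p = 0.0173). Across the array, 2.65% of probe sets were called higher and 1.03% lower. AT3G49960 had 1.01 (SE 0.25, limma adjusted p = 0.0553), AT4G26010 had 0.73 (SE 0.19, limma adjusted p = 0.0657) and AT1G30870 had 0.47 (SE 0.18, limma adjusted p = 0.216). AT3G01190 had -0.07 (95% interval -0.25 to 0.11, limma adjusted p = 0.742). For the first 4 of these genes every ERF115OE array lay above every erf115ko array, as it did for 9.58% of all probe sets. This comparison shares its ERF115OE arrays with the one against Col-0, so the values are not independent of it.

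The fit pools the spread of all 3 genotypes, so the scatter of Col-0 enters here too. With Col-0 replicate 3 left out, 4 members were called higher than in erf115ko (3.06% of all probe sets were): AT1G34510 (limma adjusted p = 0.00227), AT3G49960 (limma adjusted p = 0.00536), AT4G26010 (limma adjusted p = 0.033) and AT1G30870 (limma adjusted p = 0.0265). Without Col-0 replicate 1, AT4G26010 was called beside AT1G34510 (limma adjusted p = 0.0362). AT1G34510 lost its call without erf115ko replicate 1 (limma adjusted p = 0.0898), erf115ko replicate 2 (limma adjusted p = 0.0534) or ERF115OE replicate 2 (limma adjusted p = 0.0666), with log2 fold changes of at least 1.85. In order of mean level, ERF115OE came first for AT1G34510, AT3G49960, AT4G26010 and AT1G30870, and erf115ko and Col-0 did not differ beyond their spread in any of the 5.

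**Figure D2:**
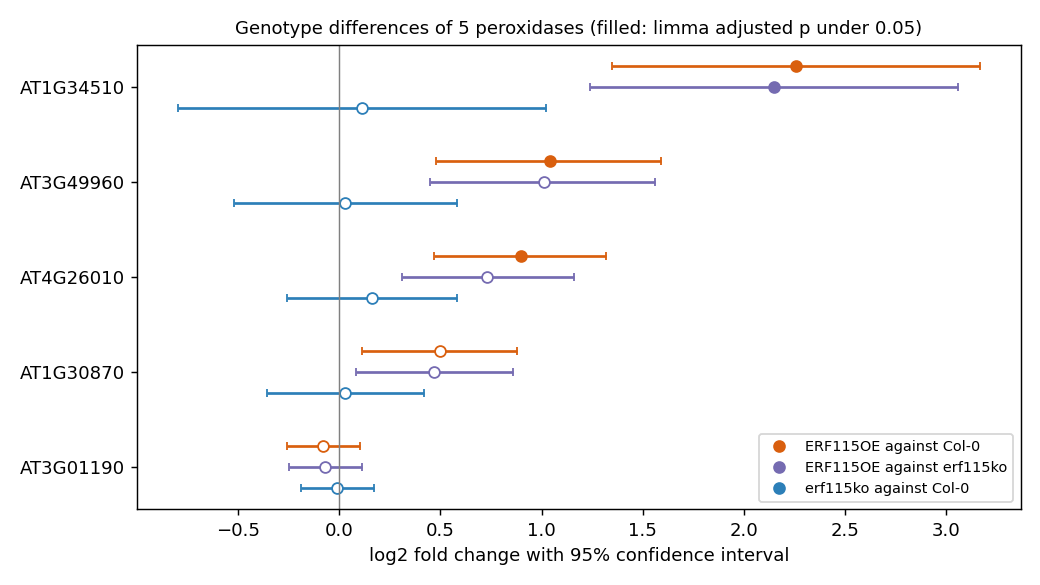
Log2 fold change of the 5 peroxidases in the 3 comparisons, with lines for the 95% interval of the limma fit and filled points where the adjusted p was under 0.05. Against Col-0 the overexpressor has 3 filled points, AT1G34510 at 2.26, AT3G49960 at 1.04 and AT4G26010 at 0.90, while every interval of erf115ko against Col-0 holds 0.

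The members other than AT3G01190 were correlated with each other over the arrays. Over the 9 arrays their 6 pairs had Pearson's r between 0.92 and 0.98 and Spearman's rank correlation between 0.90 and 0.95. The difference between genotypes is part of those values, so the same was taken after each genotype's mean was subtracted, and r was then 0.77 to 0.95. Col-0 replicate 3 weighs on that value: AT1G34510 lay 1.07 above its Col-0 mean there. No within-genotype correlation was taken without this array. Without subtraction, r was 0.71 to 0.97 over the 6 arrays of Col-0 and erf115ko alone. It was 0.94 to 0.99 over 9 arrays less Col-0 replicate 3, which still holds the genotype difference. Within erf115ko, replicate 2 was the lowest array for AT3G49960 (6.95) and the highest for AT4G26010 (9.12). AT3G01190 did not share the pattern, with r between -0.48 and -0.27 to the other 4 over 9 arrays and between -0.26 and 0.20 within genotypes. All of these points share arrays and their normalization, and they are given as a description.

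The shared pattern can be read array by array. Col-0 replicate 3 was the highest Col-0 array for 4 of the 5 members, and ERF115OE replicate 2 was the highest ERF115OE array for the same number. ERF115OE replicate 2 exceeded the mean of the other 2 ERF115OE arrays by 0.91 in AT1G34510, 0.57 in AT3G49960, 0.36 in AT4G26010 and 0.27 in AT1G30870. The mean log2 level of the 5 members was 8.21, 8.25 and 9.01 in Col-0, 8.39, 8.59 and 8.67 in erf115ko and 9.25, 9.68 and 9.30 in ERF115OE. Even the highest Col-0 array therefore stayed below the lowest ERF115OE array in that mean. AT1G34510 weighs most in it, with an SD of 1.24 over the 9 arrays, against 0.34 for AT1G30870 and 0.09 for AT3G01190. For AT1G30870 and AT3G01190 on their own, the Col-0 and ERF115OE arrays overlapped.

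**Figure D3:**
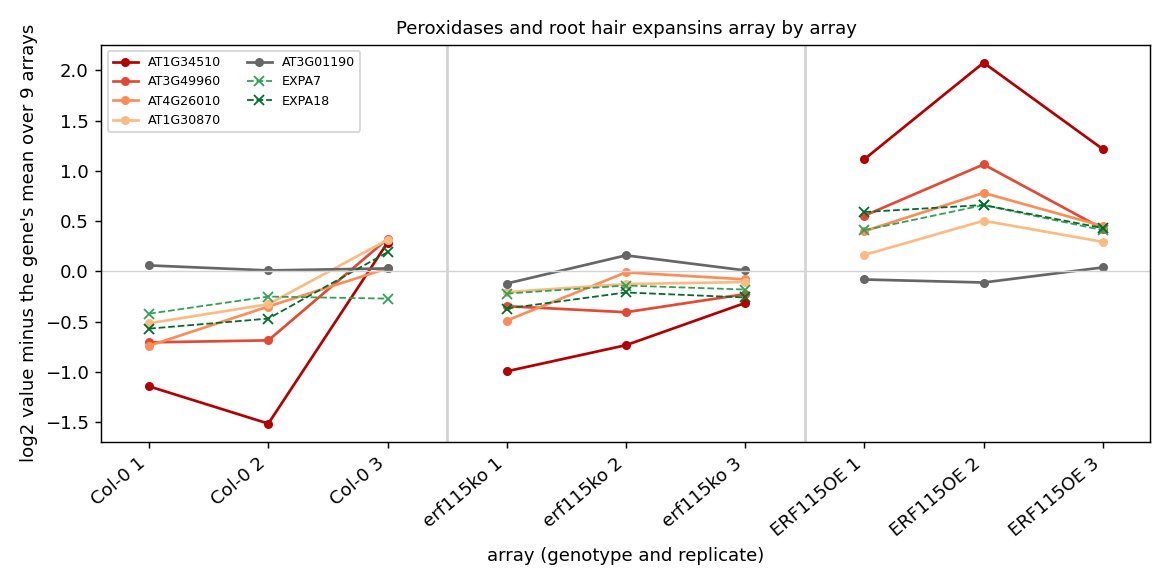
Log2 level on each array, less the gene's own mean over 9 arrays, for the 5 peroxidases and the expansins EXPA7 and EXPA18; lines join arrays of a genotype only to guide the eye. Col-0 replicate 3 and ERF115OE replicate 2 stand out within their genotypes for AT1G34510 and AT3G49960, and AT3G01190 is flat.

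Genes outside the set were ranked by how closely they followed the mean of the members, each centred on its own mean, over the 9 arrays. The members were not scaled, so AT1G34510, from -1.51 to 2.08 around its own mean, weighs most in that mean. Among 9856 candidate probe sets, the 10 highest were AT1G33700 (r = 0.995), AT3G26760 (r = 0.991), EULS3 (Euonymus lectin S3, a lectin, r = 0.990), AT2G41970 (r = 0.988), AT4G25790 (r = 0.986), AT4G19200 (r = 0.985), AT5G04960 (r = 0.985), AT5G24313 (r = 0.984), AT2G46620 (r = 0.984) and AT4G33730 (r = 0.981). Spearman's rank correlation for these was 0.95 or more, and r was at least 0.962 without ERF115OE replicates 2 and 3, the arrays farthest from the median. Within genotypes r was 0.948 to 0.993, and over the 6 arrays of Col-0 and erf115ko it was 0.936 to 0.997. Col-0 replicate 3 weighs on both of these ranges, and neither was taken without it. These genes had been picked for that likeness, and the genotype difference is part of it, so no test is given. Their log2 fold changes of ERF115OE over Col-0 ran from 0.29 in AT3G26760 to 1.78 in AT4G25790. AT5G24313 also stands on the list of root hair genes described next.

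Other genes of root hair growth and wall building were taken from a list of 39 loci, of which 6 were measured. Here and below, measured means that the annotation used names a probe set as that 1 gene. As 8730 of the 22746 probe sets are unnamed here, the array may hold data for other listed genes. In ERF115OE against Col-0, 4 of the 6 were higher and none was lower (3.75% of all probe sets were higher), with a median log2 fold change of 0.88 and a range from -0.07 to 1.03. The higher ones were EXPA7, EXPA18, GH9C1 and AT5G24313. The counts stayed at 4 without Col-0 replicate 3. This list and the lists below were written with earlier results of these data known, so such counts are not independent support. EXPA7 encodes an expansin, a protein that loosens walls, known from root hair cells. Its log2 levels were 8.02, 8.19 and 8.17 in Col-0, 8.22, 8.30 and 8.26 in erf115ko and 8.85, 9.10 and 8.85 in ERF115OE, where all arrays lay above the other 6. The log2 fold change over Col-0 was 0.81 (SE 0.08, limma adjusted p = 0.000438).

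EXPA18, a second expansin of root hair cells, had log2 levels of 7.66, 7.76 and 8.42 in Col-0, of 7.86, 8.02 and 7.97 in erf115ko and of 8.82, 8.89 and 8.66 in ERF115OE. Its Col-0 replicate 3 was 0.71 above the mean of the other Col-0 arrays, against 0.06 for EXPA7, so only EXPA18 of the pair showed the excess of the peroxidases on that array. The excess there was also 0.39 for GH9C1, 0.54 for AT5G24313 and 0.59 for XTH26, a gene of the same list described below, so it was not particular to the peroxidases. The log2 fold change of EXPA18 over Col-0 was 0.85 (SE 0.17, limma adjusted p = 0.0137). The call was lost without Col-0 replicate 1 (limma adjusted p = 0.0522), Col-0 replicate 2 (limma adjusted p = 0.0599) or ERF115OE replicate 2 (limma adjusted p = 0.0545), with a log2 fold change of at least 0.70.

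GH9C1, an endoglucanase of glycosyl hydrolase family 9, had a log2 fold change of 0.92 (SE 0.13, limma adjusted p = 0.00266), and AT5G24313 had 1.03 (SE 0.16, limma adjusted p = 0.00448). XTH26, a xyloglucan endotransglucosylase/hydrolase that acts on wall xyloglucan, had log2 levels of 2.27, 2.24 and 2.85 in Col-0 and of 2.91, 4.20 and 3.06 in ERF115OE. These lay below the array medians, and the log2 fold change of 0.94 (SE 0.29) did not pass (limma adjusted p = 0.102). In erf115ko against Col-0 none of the 6 was called by limma or had an unadjusted p under 0.05. Against erf115ko EXPA7, EXPA18, GH9C1 and AT5G24313 were higher in ERF115OE, with a list median of 0.81. Without erf115ko replicate 1 the calls of EXPA18 (log2 fold change 0.80, limma adjusted p = 0.0931) and GH9C1 (0.72, limma adjusted p = 0.0574) were lost. EXPA18 also lost it without erf115ko replicate 3 (limma adjusted p = 0.0697), ERF115OE replicate 1 (limma adjusted p = 0.0579) or ERF115OE replicate 2 (limma adjusted p = 0.074).

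Within genotypes, the correlation with the mean of the members was 0.97 for AT5G24313, 0.93 for EXPA18, 0.92 for GH9C1, 0.80 for XTH26 and 0.59 for EXPA7. EXPA7, called higher in ERF115OE, had the lowest of these correlations. Col-0 replicate 3 weighs on these values through the mean of the members, and none was taken without that array.

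Extensins are rod-like hydroxyproline-rich glycoproteins of the wall and substrates of peroxidase cross-linking. Of 17 listed, 9 were measured, and 6 were higher in ERF115OE than in Col-0 and none lower, with a median log2 fold change of 0.70 (3.75% of all probe sets were higher). The extensin list, too, was written with earlier results of these data known. HRGP1, a hydroxyproline-rich glycoprotein, had log2 levels of 7.36, 7.64 and 7.74 in Col-0, of 7.36, 7.75 and 7.64 in erf115ko and of 8.55, 8.51 and 8.28 in ERF115OE, with no overlap between ERF115OE and the rest. Its log2 fold change over Col-0 was 0.87 (SE 0.13, limma adjusted p = 0.00291). AT3G28550 had 0.70 (SE 0.09, limma adjusted p = 0.00147), AT3G54580 had 0.99 (SE 0.16, limma adjusted p = 0.00434) and AT1G23720 had 0.43 (SE 0.07, limma adjusted p = 0.00525).

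The other called extensins, AT4G08410 at 1.25 (limma adjusted p = 0.0121) and AT5G06630 at 0.92 (limma adjusted p = 0.0341), were also high on Col-0 replicate 3, by 0.92 each over the mean of the other 2 Col-0 arrays. The probe sets of HRGP1, AT4G08410, AT5G06630 and AT1G23720 are marked as sharing probes with similar sequences, so the signals of these similar genes cannot be fully told apart. Leaving out 1 array gave 4 to 6 called extensins in this comparison, the fewest without Col-0 replicate 2, and 6 without Col-0 replicate 3. Against erf115ko 6 were higher (median 0.62, with 2.65% of all probe sets higher). There were 2 without erf115ko replicate 1 (1.23% of all probe sets) and 3 without erf115ko replicate 3 (1.26%). There were 4 without erf115ko replicate 2 (2.21%) or ERF115OE replicate 2 (1.61%). In erf115ko against Col-0 none was called by limma or had an unadjusted p under 0.05 (median -0.01).

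Of 11 genes listed as NADPH oxidases and regulators of reactive oxygen species, 4 were measured. AT1G19230, listed among the NADPH oxidases, had log2 levels of 4.92, 4.77 and 4.81 in Col-0, of 4.78, 4.92 and 5.14 in erf115ko and of 5.49, 5.52 and 5.80 in ERF115OE, above all others. Its log2 fold change was 0.77 over Col-0 (SE 0.11, limma adjusted p = 0.00261) and 0.65 over erf115ko (SE 0.11, limma adjusted p = 0.00936). It was the only called gene of the list in either comparison. Against Col-0, 3 of the 4 were called higher without Col-0 replicate 3 (4.29% of all probe sets were) and 2 without ERF115OE replicate 1 (3.5%). UPB1, a bHLH transcription factor that represses peroxidase genes in the elongation zone of the root, had -0.18 in ERF115OE against Col-0 (limma adjusted p = 0.478) and -0.28 in erf115ko against Col-0 (SE 0.12, unadjusted p = 0.0377, limma adjusted p = 1). AT4G25090, also listed among the NADPH oxidases, had 0.31 in erf115ko against Col-0 (SE 0.13, unadjusted p = 0.0386, limma adjusted p = 1) and 0.37 in ERF115OE against Col-0 (limma adjusted p = 0.149).

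Regulators of hair formation were hardly covered by the probe sets named here, and whether unnamed probe sets report the others was not tested. Of 6 listed root hair regulators only AT2G14760 was measured, at dim log2 levels of 2.57 to 2.83 over the 9 arrays, with a log2 fold change of -0.11 in ERF115OE against Col-0 (limma adjusted p = 0.503). Of 12 genes that set hair against non-hair fate only TRY was measured, an R3 MYB protein, with -0.23 (limma adjusted p = 0.306).

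The rest of the family was read from the same fit. Of 65 other class III peroxidases listed, 50 were measured, and in ERF115OE against Col-0 9 were higher and 3 lower, with a median log2 fold change of 0.04 and a range from -0.66 to 3.09. The share called higher was 18%, above the 3.75% of all probe sets, and 1.7% of all probe sets were called lower. The difference in calls between the 5 members and these 50 was not tested, and both lists were chosen with earlier results of these data known. The biggest increase was in AT4G36430, with log2 levels of 3.54, 3.59 and 3.60 in Col-0, of 3.36, 3.76 and 3.76 in erf115ko and of 6.63, 7.07 and 6.28 in ERF115OE. Its log2 fold change was 3.09 (limma adjusted p = 7.15e-06), and Col-0 replicate 3 was 0.03 above the other 2 Col-0 arrays.

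AT5G39580 followed with log2 levels of 3.10, 3.56 and 3.88 in Col-0, of 3.83, 3.52 and 3.52 in erf115ko and of 5.71, 6.40 and 6.58 in ERF115OE, a log2 fold change of 2.72 (limma adjusted p = 0.000132). For both genes ERF115OE did not overlap with the other 2 genotypes. Their levels in Col-0 and erf115ko lay below the array medians, where RMA compresses differences, and whether they were above background was not tested. Prx37 had 1.06 (limma adjusted p = 0.000916), AT1G14550 had 1.02 (limma adjusted p = 0.00284), AT2G37130 had 0.87 (limma adjusted p = 0.00595) and AT5G51890 had 0.85 (limma adjusted p = 0.00509). Among the lower ones, AT5G40150 had -0.34 (limma adjusted p = 0.00734) and AT4G16270 had -0.66 (limma adjusted p = 0.0168), the latter lost without ERF115OE replicate 2 (-0.56, limma adjusted p = 0.0633). Leaving out 1 array gave 6 to 11 higher and 1 to 4 lower in this family, with 6 without Col-0 replicate 1, Col-0 replicate 2 or ERF115OE replicate 2, and 11 without Col-0 replicate 3, and the 1 lower came without ERF115OE replicate 2. In erf115ko against Col-0 none of the 50 passed by limma or had an unadjusted p under 0.05. Against erf115ko 6 were higher in ERF115OE and 2 lower, with 2.65% of all probe sets higher and 1.03% lower. Only 3 were higher without erf115ko replicate 1 (1.23% of all probe sets) or erf115ko replicate 3 (1.26%). The lower calls numbered 2 without Col-0 replicate 3, 1 without Col-0 replicate 2 and 0 without any of the other 7 arrays.

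Some of these peroxidases shared the scatter of the root hair members without passing the test. They were picked after their values were seen. AT3G21770 had r = 0.99 within genotypes to the mean of the members and a log2 fold change of 0.28 (limma adjusted p = 0.296). AT1G44970 had r = 0.98 and 0.45 (limma adjusted p = 0.22), and AT5G66390 had r = 0.94 and 0.48 (limma adjusted p = 0.254). The sign was the other way in AT5G64120, with r = 0.94 and -0.25 (limma adjusted p = 0.718), and in AT5G06730, with r = 0.85 and -0.31 (limma adjusted p = 0.395). These were the 5 with the highest r of the 50, and none was called. Next in rank were AT5G51890 and AT5G17820, both with r = 0.81 and both called higher (limma adjusted p = 0.00509 and 0.0393). Prx37 was called higher too but went the other way within genotypes, with r = -0.70. It was the only one of the 9 called higher with a negative r. Col-0 replicate 3 weighs on these r values as well, and none was taken without that array.

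**Figure D4:**
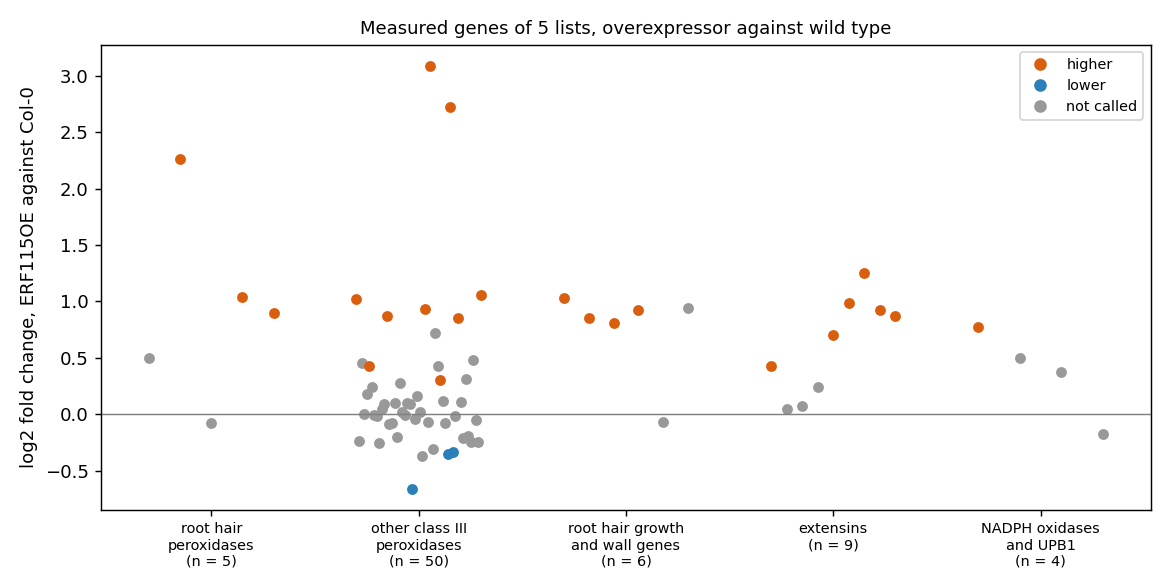
Log2 fold change of ERF115OE over Col-0 for each measured gene of 5 lists. Points are orange (higher) or blue (lower) where the limma adjusted p was under 0.05, and grey where it was not. Of the 5 root hair peroxidases 3 are orange, of the 50 other class III peroxidases 9 are orange and 3 blue, and the extensins have 6 orange points.

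Markers of other parts of the root tip were set beside these results. Of 14 genes of dividing cells, 3 were measured, AUR1, AUR2 and AUR3, kinases of mitosis. Their mean log2 level was 6.62 on all Col-0 arrays, 6.56 to 6.76 in erf115ko and 6.55 to 6.73 in ERF115OE, and none was called. AUR1 had log2 levels of 7.45, 7.51 and 7.47 in Col-0, of 7.65, 7.45 and 7.52 in erf115ko and of 7.39, 7.29 and 7.30 in ERF115OE, below all other arrays. The log2 fold change of AUR1 was -0.15 over Col-0 (limma adjusted p = 0.286) and -0.22 over erf115ko (unadjusted p = 0.011, limma adjusted p = 0.147). Of 8 stem cell niche genes, 2 were measured. AGL42, a MADS-box gene expressed around the quiescent centre, was lower in ERF115OE than in Col-0 by a log2 fold change of -0.52 (SE 0.09, limma adjusted p = 0.00789), and BBM had -0.30 (limma adjusted p = 0.277). The mean level of AGL42 and BBM was 5.03 to 5.30 in Col-0, 5.07 to 5.16 in erf115ko and 4.64 to 4.87 in ERF115OE.

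The single endodermis gene measured of 8, AT1G61590, had 7.07, 7.28 and 7.70 in Col-0, 7.19, 7.63 and 7.56 in erf115ko and 7.68, 8.16 and 7.80 in ERF115OE. Its log2 fold change over Col-0 of 0.53 did not pass (limma adjusted p = 0.13) but did without Col-0 replicate 3 (0.70, limma adjusted p = 0.0401), and its highest Col-0 and ERF115OE arrays were Col-0 replicate 3 and ERF115OE replicate 2. The single xylem gene of 8, AT5G60720, had 0.21 (limma adjusted p = 0.362), at 4.51 to 4.87 in Col-0 and 4.85 to 5.13 in ERF115OE. No marker of the 6 for root cap or of the 4 for phloem had a probe set named as that 1 gene. The mean levels of the stem cell niche markers did not overlap between ERF115OE and Col-0, and those of the endodermis and xylem genes reached their highest on ERF115OE replicate 2. Their part in the result was not tested. No marker was at 0, and RMA values have no true 0.

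The neighbours of the members on their chromosomes were looked at after the other results were known. Of the 30 protein-coding genes within 3 positions on either side, in the gene order of TAIR10.1, 15 were measured. None was higher in ERF115OE than in Col-0, and their log2 fold changes ran from -0.41 to 0.16. The 1 called gene, AT3G49930, was lower (-0.41, SE 0.07, limma adjusted p = 0.00465). AT4G25980, a further class III peroxidase 3 genes from AT4G26010, had 0.16 (limma adjusted p = 0.495).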

How the data were processed

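Transcripts were measured on 9 Affymetrix arrays of 1 colour, 3 per genotype. The values deposited are log2 levels that the authors computed with RMA in affy 1.36, per the submitters' processing notes. RMA sets all arrays to a common distribution, so a shift shared by most transcripts is removed, and it compresses small differences near background. Of 22810 deposited probe sets, 64 controls were left out. Of the other 22746, 13513 have 1 gene in the platform's probe annotation, 503 have several and 8730 are unnamed here. RefSeq's gene table (TAIR10.1) matched 13436 and was used for names and gene order only. The build of the array's design is not given in the sources used here, so positions are left out.

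Each comparison came from limma 3.58.1 under R 4.3.3 (lmFit, eBayes), with 1 mean per genotype over all 9 arrays, 6 residual and 4.49 prior degrees of freedom, and Benjamini-Hochberg adjustment over 22746 probe sets. Precision is limited by the number of arrays, and log2 fold changes had a median SE of 0.088. The fit was tested on simulated data. Replicate numbers are shared by the genotypes, but deviations of same-numbered arrays correlated by -0.21 to 0.14, with 2 of 9 pairs over 0.1, so arrays were not treated as paired. Alternatives were other normalizations, filters on low values, priors, array weights, only the arrays compared, a replicate block and leaving out each array. Outside the members, genes were named by a rule: per list and comparison up to 4 called genes with the smallest p (8 for other peroxidases), or 2 where none passed, and the 10 most like the members. Values named outside that rule were chosen after they were seen. The members and all lists, written from memory of gene families, were chosen with earlier results of these data known. 1 measured gene of the root hair growth list is not reported here.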

Additional observations from a re-analysis of the deposited data

How the results depend on the processing

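The 3 members called higher in ERF115OE against Col-0 stayed 3 with arrays centred on their medians, quantile normalization, both filters, both other priors, the replicate block and without probe sets that share probes. They were 4 with array weights, when 4.89% of all probe sets were called higher, and 2 with only the 6 arrays compared (2.55%). The main fit called 3.75%. Leaving out 1 array gave 1 to 4 members and 2.29 to 4.29% of all probe sets. The count was 1 without Col-0 replicate 1, Col-0 replicate 2, ERF115OE replicate 2 or ERF115OE replicate 3, and 4 without Col-0 replicate 3. Against erf115ko the main fit called 1 member and 2.65% of all probe sets. The count became 2 with centring (2.64%), quantile normalization (2.66%) or the replicate block (2.78%). It was 3 with the median filter, the log2 filter, the trended prior (3.17%) or array weights (4.74%), and 4 with only 6 arrays (2.39%). Leaving out 1 array gave 0 to 4 members and 1.23 to 3.06% of all probe sets. The count was 0 without erf115ko replicate 1, erf115ko replicate 2 or ERF115OE replicate 2, and 4 without Col-0 replicate 3. The cause was not tested, apart from fewer probe sets or arrays in the fit. The labels tie nothing to the replicate numbers, and 4 of 9 arrays correlated best with their own number, which leaves a shared batch or day not tested. Under the replicate block all probe sets gave 885 higher and 379 lower in ERF115OE against Col-0, and 1 lower in erf115ko against Col-0.

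Over all probe sets, leaving out 1 array gave 522 to 976 higher and 226 to 377 lower in ERF115OE against Col-0 (main 854 and 387), 280 to 695 higher and 75 to 262 lower against erf115ko (main 602 and 235), and 0 to 1 higher and 0 to 5 lower in erf115ko against Col-0 (main 1 and 2). The lowest counts of higher probe sets came without Col-0 replicate 1 and without erf115ko replicate 1. Only 6 arrays gave 226 lower against Col-0, and array weights gave 1079 higher and 683 lower against erf115ko. In erf115ko against Col-0, 2 were higher with centring or either filter, 3 higher and 7 lower with array weights, and 0 lower with only 6 arrays. Of the 10 most similar genes, 6 to 9 were kept when 1 array was left out.

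Directions turned only for differences near 0 in the main fit, but leaving out 1 array moved some of these well away from 0. In erf115ko against Col-0, AT5G60720 was -0.02 with centring and -0.02 with quantile normalization, and TRY was -0.01 with centring. AT2G14760 was 0.00 against erf115ko with quantile normalization, and AUR2 was -0.01 in ERF115OE against Col-0 with array weights. With 1 array left out, erf115ko against Col-0 ranged from -0.25 to 0.65 for AT1G34510, -0.15 to 0.37 for AT3G49960, -0.03 to 0.35 for AT4G26010, -0.14 to 0.27 for AT1G30870, -0.09 to 0.05 for AT3G01190, -0.11 to 0.08 for AGL42 and for AT5G60720, -0.10 to 0.10 for TRY, -0.03 to 0.28 for AT1G61590 and -0.27 to 0.00 for BBM. ERF115OE against erf115ko ranged from -0.14 to 0.00 for AT3G01190, -0.07 to 0.11 for AUR3 and -0.09 to 0.03 for AT2G14760.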
